A study of Mus musculus with 2 samples.

Results

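The antioxidant, glutathione and thioredoxin genes of mouse 3T3-L1 adipocytes were examined with and without DF, a mixture of several herbs. They were chosen by a rule on symbols that used no measured value, though earlier results of these data were known. The rule took the glutathione transferases (Gst and Mgst genes), glutathione peroxidases (Gpx), peroxiredoxins (Prdx) and all genes whose symbol starts with Txn or Glrx. It also took the superoxide dismutases Sod1 to Sod3, and Gclc, Gclm, Gsr, Gss, Nqo1, Srxn1, Nfe2l1, Nfe2l2 and Keap1. This rule found 72 of the 24421 genes listed. Of the 72, 59 were above 0 in both libraries, 1 in the control library only, and 12 were listed at 0 in both. There were 2 groups of 1 library each, a control without treatment and a culture that had DF in its medium up to harvest. Both came from the 3T3-L1 line, for which the labels give the C57BL/6 strain background, at passages 10 to 13. Both were kept for 2 days after confluence and then differentiated for 2 days with insulin (1 µg/mL), dexamethasone (0.25 µM) and IBMX (0.5 mM), and then with insulin alone. The sources used here give neither how much DF was added nor when the cells were harvested.

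Glutathione is a small thiol made from glutamate, cysteine and glycine. The glutathione system and the thioredoxin system run in parallel. Each passes electrons from NADPH through a reductase to a thiol carrier, and from there to peroxidases that remove hydrogen peroxide and lipid peroxides. Glutathione transferases also join glutathione to electrophiles, among them the reactive aldehydes that arise from oxidised fatty acids, which makes them of interest in a cell that stores fat. Many of these genes are switched on by the transcription factor Nrf2, which the adaptor Keap1 otherwise sends to degradation.

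Values are log2 levels as deposited, and differences are DF minus control. With 1 library a group there is no replicate error, no test was possible, and every difference compares these 2 cultures. The protocol reads the 3' ends of messenger RNAs, so values were not divided by transcript length. The 140 top values are the same set in either file, down to a level of 13.98, so that Txnip, Sod1 and Nfe2l1 are compared by rank there. Further down, equal ranks could also hold equal values, such as 10.69 at rank 2059 and 7.61 at rank 7314 in either library. Differences and folds of the other members can thus also be in large part changes of rank on a shared scale. Examined genes are those at or above a level of 8.18, which is the median of all values above 0, in at least 1 library. A gene was called higher or lower at a difference of at least 1.5-fold. Sequencing depth is unknown. The cell type label was checked on 10 adipocyte markers, all above 0 in both libraries, with summed linear values of 579493 in the control and 649695 with DF. The 5 preadipocyte markers summed to 99660 in the control and 36564 with DF. Of these 5, Dlk1, Pdgfra and Ly6a were lower with DF by at least 2-fold, Thy1 was at 7.23 and 7.03, and Cd34 was listed at 0 in both. The part of this shift in the differences below was not tested. The 8 macrophage, 4 endothelial, 6 muscle and 4 hepatocyte markers all lay under the level floor, with summed linear values of at most 97.3 for any of these lists in either library, and 11 of these 22 genes were listed at 0 in both, among them Adgre1, Kdr, Tek, Myod1, Myog and Alb. Some of the others differed at these low values, such as Pecam1 at 6.49 and 2.83, Acta1 at 1.0 and 6.54, Cd68 at 2.83 and 4.88, and Ptprc at 4.33 and 2.64.

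Most antioxidant genes were at similar levels in both cultures, and the few that stood apart went in both directions. Of 47 examined members, 38 lay within 1.5-fold, 4 were higher with DF and 5 were lower. The 9 called members are 19.1% of those examined, beside 21.1% of all 6761 genes examined (10.2% higher and 10.9% lower), so the share called was close to that of genes in general. The higher members were Gstk1, Gpx8, Gpx4 and Gclm. The lower ones were Mgst3, Gsr, Gss, Txndc17 and Txndc15. At 2-fold, Gstk1 and Gpx8 were higher and Mgst3 was lower, 6.38% of the members examined, beside 5.77% of all genes (2.56% higher and 3.21% lower). The median difference over the 59 members above 0 in both libraries was 0.05 log2 units, beside 0.04 over all 11744 such genes. The SD of the differences among examined members was 0.56, beside 0.53 among all genes examined. A further 13 members lay under the floor in both libraries but above 0 in at least 1. Gclm and Gstk1 were examined only through their DF values and Gss only through its control value, so their differences are in part fixed by the floor. With the floor required in both libraries, 2 of 43 members were higher and 4 were lower. Centring on the median of all examined genes shifted every difference by 0.01 log2 units, and each of the 9 kept its call under that and the other changes of scale, centring and pseudocount. The deposited values were already close in centre and sum, so centring on the median and rescaling could change few calls.

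**Figure D1:**
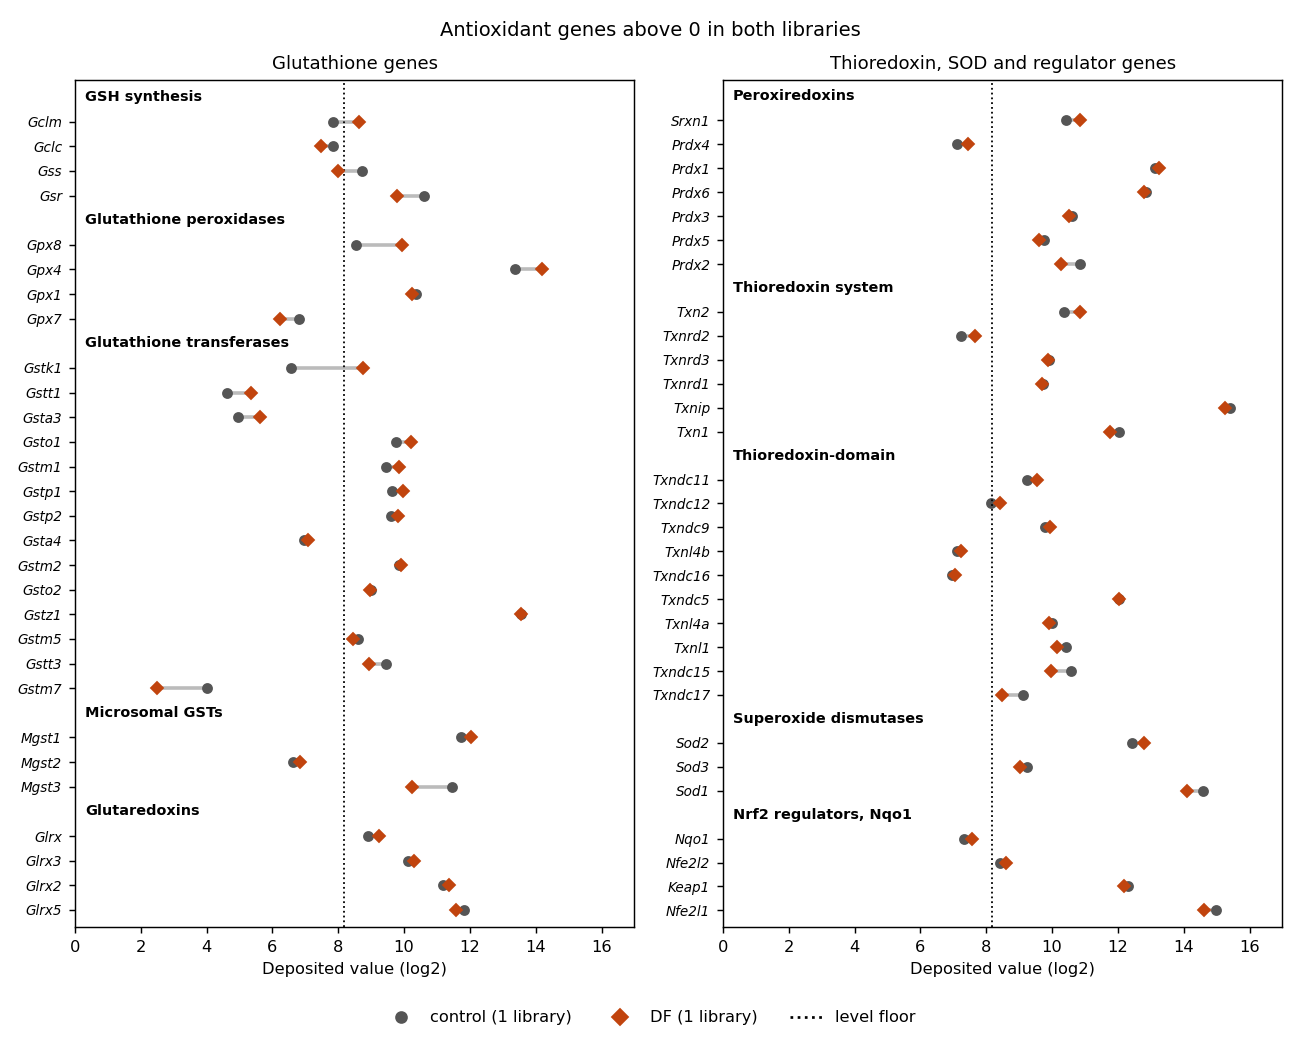
Deposited log2 values of the 59 antioxidant genes above 0 in both libraries, by family; grey circles are the control library, orange diamonds the DF library, and the dotted line is the level floor of 8.18. Most pairs of points nearly coincide, and the long connecting lines belong to Gstk1, Gpx8 and Mgst3 at or above the floor and to Gstm7 near the bottom of the scale.

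The spread of differences widened toward low levels, and the called members were spread over the range. Among examined members with a mean level under 9, 4 of 8 were called, beside 34.0% of all genes there. From 9 to 10 it was 1 of 15, beside 19.9%. From 10 to 12 it was 3 of 14, beside 14.1%, and at 12 and over 1 of 10, Gpx4, beside 11.3%. Over all 39 members with a mean level of at least 9, 5 were called (12.8%), beside 15.8% of the 4790 genes at that level.

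**Figure D2:**
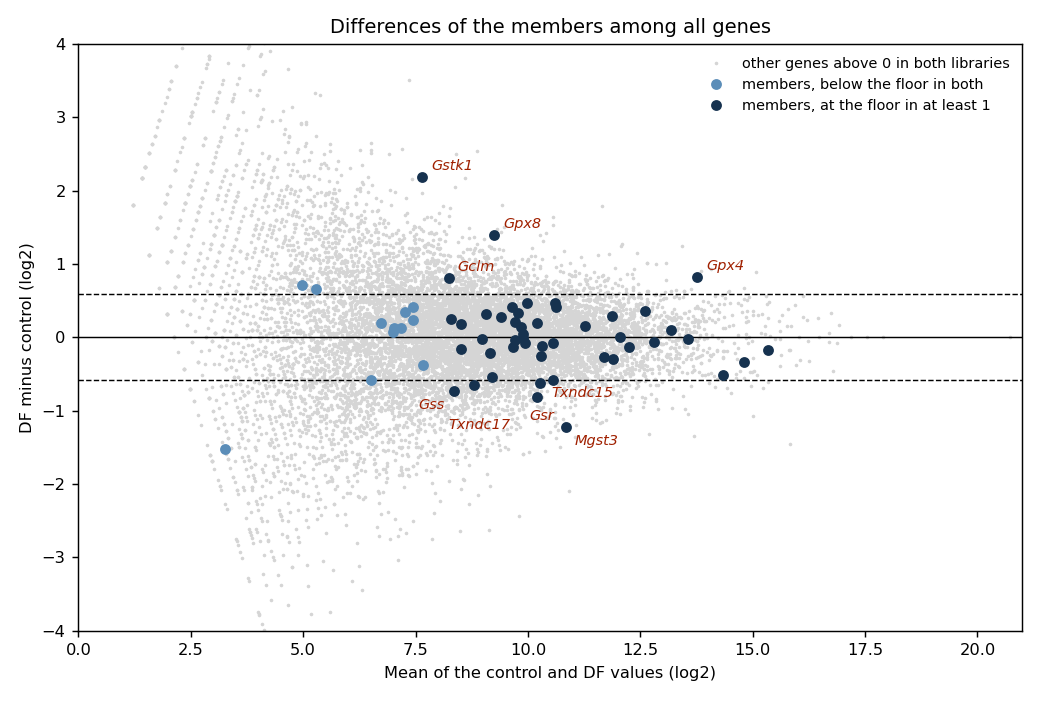
DF minus control difference (log2) against the mean of both values (log2) for genes above 0 in both libraries; dark blue points are members at the level floor in at least 1 library, light blue points members below it, grey points all other genes, and dashed lines mark 1.5-fold. The 9 called members are named; 40 genes lie beyond the axis limits of 4 log2 units. Gstk1 sits at the upper edge of the cloud, and Gpx4 lies among genes of mean level 12 and over, of which 11.3% pass a dashed line.

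The regulators of the antioxidant response differed little. Nfe2l2, which encodes Nrf2, was at 8.42 without DF and 8.61 with it. Keap1, its inhibitor, was at 12.31 and 12.18. Nfe2l1, the related factor that controls proteasome genes, was at 14.97 and 14.63, rank 58 in the control library and rank 82 with DF. None of these 3 regulators was past 1.5-fold, and the Nrf2 target Nqo1, the quinone reductase often used as a readout of the response, was at 7.32 and 7.57, under the floor in both. Levels of Nrf2 messenger RNA do not show the amount of Nrf2 protein, which is set mainly by its degradation.

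Promoter sequences were searched for the core of the antioxidant response element, the DNA site of Nrf2 with small Maf partners, spelled TGACNNNGC on either strand (GCNNNGTCA when read on the gene's strand). RefSeq promoters on GRCm38.p6, from 250 bases before to 50 after each annotated start, were held for 64 of the 72 members and not for Gclc, Gsr, Gsta4, Gstt2, Prdx6, Sod3, Txnl1 and Txnl4a. The core was in a promoter of 13 of the 64 (20.3%), beside 15.0% of the 17224 listed genes with such a sequence, and 12.4% of all 32851 promoters of that length. Examined members that carried it numbered 10. In Srxn1, sulfiredoxin, it lay after the start, and for the other 9 a stretch of 60 bases before the start is shown, 5′ to 3′ along the gene, with the core in capitals, because these are the examined members in which the data can be read beside the site.
Gclm, chr3:122245398-122245457, plus strand: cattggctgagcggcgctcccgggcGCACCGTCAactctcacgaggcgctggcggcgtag
Mgst1, chr6:138140446-138140505, plus strand: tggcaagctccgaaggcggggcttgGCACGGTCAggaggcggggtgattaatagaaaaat
Prdx1, chr4:116685441-116685500, plus strand: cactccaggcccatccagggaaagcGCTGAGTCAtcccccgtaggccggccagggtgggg
Txnrd1, chr10:82859089-82859148, plus strand: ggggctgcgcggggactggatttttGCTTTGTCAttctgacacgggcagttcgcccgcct
Sod1, chr16:90220681-90220740, plus strand: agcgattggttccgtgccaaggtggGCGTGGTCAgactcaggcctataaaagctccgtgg
Nfe2l2, chr2:75704854-75704913, minus strand: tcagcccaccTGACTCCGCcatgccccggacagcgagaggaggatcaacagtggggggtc
Txndc5, chr13:38528018-38528077, minus strand: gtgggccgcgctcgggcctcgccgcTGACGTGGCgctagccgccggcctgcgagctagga
Txndc11, chr16:11134723-11134782, minus strand: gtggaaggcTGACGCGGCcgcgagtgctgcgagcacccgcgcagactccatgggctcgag
Gstm5, chr3:107895787-107895846, plus strand: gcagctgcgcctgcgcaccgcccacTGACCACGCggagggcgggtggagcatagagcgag
Members that carry the core differed in both directions. Gclm, examined only through its DF value, was the single one of the 10 past 1.5-fold (10.0%). The share called was 21.9% among the 32 examined members without the core and 21.1% among all genes examined. The other 9 members with the core lay between -0.51 (Sod1) and 0.42 (Srxn1). Their median difference was 0.14, over the 10 examined members, beside -0.02 for the 32 examined members whose promoters lack it. This gap depends on the level floor. Over members above 0 in both libraries, the medians were 0.14 for 12 with the core and 0.11 for 40 without it. A match of these letters is a description of the sequence and does not show binding.

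The enzymes that make and recycle glutathione went apart. Gclm encodes the modifier subunit of glutamate-cysteine ligase, the rate-limiting step of glutathione synthesis. It was at 7.83 without DF and 8.64 with it, 1.76-fold higher. Gclc, the catalytic subunit of the same enzyme, was at 7.85 and 7.47, under the floor in both. In the control library the subunits were thus at nearly equal values, and with DF Gclm stood above Gclc. Gss, glutathione synthetase, which adds glycine in the last step, was at 8.73 and 8.0, 1.67-fold lower. An exon of Gss overlaps Acss2 on the other strand, and the sources used here do not say if reads were counted by strand. Gsr, glutathione reductase, which regenerates reduced glutathione with NADPH, was at 10.61 and 9.80, 1.75-fold lower. On GRCm38 (GENCODE vM21), Gsr spans 33652523 to 33698163 of chromosome 8 and Gclm 122245557 to 122270732 of chromosome 3, both on the plus strand. Of this family of 4, only Gsr was at the floor in both libraries. Gclm reached it only with DF and Gss only without, at mean levels where 34.0% of all examined genes were called.

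Among the glutathione peroxidases, Gpx4 and Gpx8 were higher with DF while Gpx1 was not. Gpx4 encodes the selenoenzyme that reduces lipid hydroperoxides within membranes and protects cells from ferroptosis. It was at 13.36 without DF and 14.18 with it, 1.77-fold higher, and moved from rank 254 to rank 117 of all genes. Its transcript end resembles a pseudogene, so some of its reads could have been placed elsewhere. Gpx8 encodes a peroxidase of the endoplasmic reticulum that carries cysteine in place of selenocysteine. It was at 8.55 and 9.94, 2.64-fold higher, and spans 113042753 to 113046410 of chromosome 13 on the minus strand. Gpx1, the soluble selenoenzyme of cytosol and mitochondria, was at 10.37 and 10.26. Gpx7, the close relative of Gpx8 in the endoplasmic reticulum, was at 6.80 and 6.22, under the floor in both and opposite in sign to Gpx8. Gpx2, Gpx3, Gpx5 and Gpx6 were listed at 0 in both libraries, among them the secreted plasma enzyme Gpx3. On the deposited linear scale Gpx4 made up 85.3% of the summed Gpx values in the control and 89.0% with DF, and Gpx1 10.7% and 5.88%.

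The soluble glutathione transferases were mostly near equal, with Gstk1 as the exception. Gstk1, the kappa-class transferase of mitochondria and peroxisomes, was at 6.56 without DF and 8.74 with it, 4.55-fold higher, the largest difference of any examined member. It was examined only through its DF value, so this place is in part fixed by the floor. The gene spans 42245935 to 42250447 of chromosome 6 on the plus strand, with no exon overlapping another listed gene and no near-identical transcript end. Adding a pseudocount of 32 to the linear values reduced its difference from 2.19 to 1.87 log2 units. Gstz1, the zeta-class enzyme that acts as maleylacetoacetate isomerase in tyrosine breakdown, was the most abundant member of the family and was at 13.57 and 13.54. It made up 67.0% of the summed linear values of the family in the control and 63.1% with DF. One of its exons overlaps Pomt2 on the other strand.

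Most transferase genes lie in clusters of related copies, whose values differed from gene to gene. The mu-class cluster lies on chromosome 3 within 107895821 to 108044894. There Gstm1 was at 9.44 and 9.85, Gstm2 at 9.86 and 9.91, and Gstm5 at 8.60 and 8.44, while Gstm3, Gstm4 and Gstm6 were listed at 0 in both. Gstm7 was at 4.01 and 2.49, far below the floor. The pi-class genes Gstp1 and Gstp2 were at 9.62 and 9.96, and at 9.61 and 9.82, in the control and with DF. Their last 500 bases are 98.8% identical, so their reads cannot be told apart with certainty and their near-equal values are not independent. In the omega class, Gsto1 was 1.39-fold higher (9.75 to 10.22), under the 1.5-fold limit, and its neighbour Gsto2 was at 8.99 and 8.97. In the theta class, Gstt3 was 1.45-fold lower (9.46 to 8.92), and Gstt1 was at 4.63 and 5.34. Gstt2 was at 4.33 in the control and listed at 0 with DF, so no fold is given. In the alpha class Gsta4, which detoxifies the lipid aldehyde 4-hydroxynonenal, was at 6.95 and 7.08, Gsta3 at 4.96 and 5.63, and Gsta1 and Gsta2, which are near-identical at their ends, were listed at 0 in both. Of 21 soluble transferases, 10 were examined, and Gstk1 was the only one of these past 1.5-fold (10.0%, beside 21.1% of all genes examined).

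The microsomal transferases differed in their balance. Mgst3, a membrane-bound enzyme with transferase and peroxidase activity, was at 11.46 without DF and 10.24 with it, 2.33-fold lower, the lowest difference of any examined member. Mgst3 spans 167371966 to 167393841 of chromosome 1 on the minus strand. Mgst1, the abundant enzyme of the endoplasmic reticulum and outer mitochondrial membrane, was at 11.73 and 12.02, 1.22-fold higher. Mgst2 was at 6.63 and 6.83, under the floor. In the control library Mgst1 gave 54.0% and Mgst3 44.5% of the summed linear values of these 3 genes, and with DF 75.9% and 22.0%. The sum itself was 6314 in the control and 5474 with DF.

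**Figure D3:**
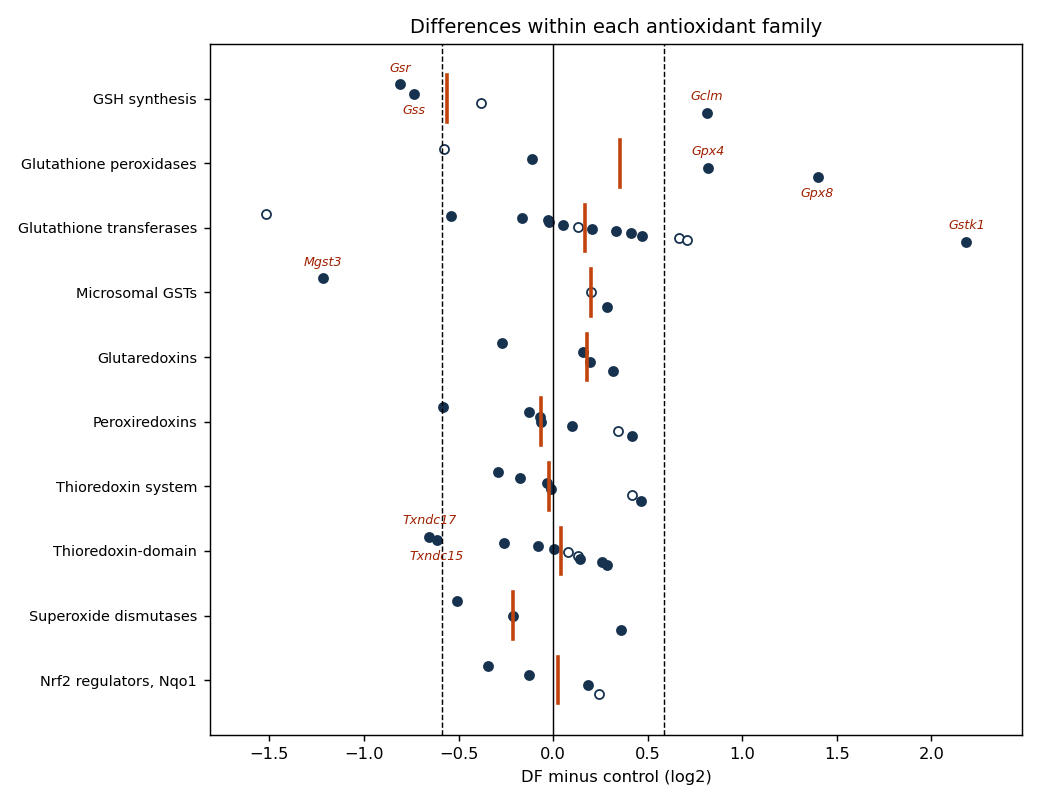
DF minus control differences (log2) of members above 0 in both libraries, one row per family; filled points are examined members, open points members under the level floor, orange bars family medians over the points shown, and dashed lines 1.5-fold. Called members are named. The glutathione rows hold the widest spread, from Mgst3 at -1.22 to Gstk1 at 2.19 among filled points, while all filled points of the glutaredoxin, peroxiredoxin, thioredoxin, superoxide dismutase and regulator rows lie inside the dashed lines.

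The glutaredoxins, which use glutathione to reduce mixed disulfides or to hold iron-sulfur clusters, were all within 1.5-fold. Glrx, the cytosolic dithiol enzyme, was at 8.91 and 9.23. The mitochondrial Glrx2 was at 11.19 and 11.35, and its transcript end holds a stretch found in many other transcripts. Glrx3 and Glrx5, monothiol proteins of iron-sulfur handling, were at 10.11 and 10.30, and at 11.83 and 11.56. None of these 4 was called, and 3 of the 4 differences were above 0.

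The peroxiredoxins, thioredoxin-dependent enzymes that remove most hydrogen peroxide at low concentrations, were nearly level. Prdx1, the main cytosolic form, was at 13.14 without DF and 13.24 with it, and Prdx6, which is recharged by glutathione, was at 12.85 and 12.78. Prdx3, of the mitochondrial matrix, was at 10.60 and 10.53, and Prdx5, found in mitochondria, peroxisomes and cytosol, at 9.74 and 9.61. Prdx4, the form of the endoplasmic reticulum, was at 7.10 and 7.44, under the floor. Prdx2, the second cytosolic form, stood apart, at 10.85 and 10.26. Its difference of -0.58 log2 units fell just short of the 1.5-fold limit, whereas that of Txndc15, -0.62, lay just past it. With differences centred on the median of examined genes, Prdx2 passed the limit too, which made 6 lower members. Exons of Prdx2 overlap Junb and Rnaseh2a on the other strand. Srxn1, the sulfiredoxin that repairs overoxidised peroxiredoxins, was 1.34-fold higher (10.42 to 10.84). Summed over the family, the linear values were 22158 in the control and 22214 with DF.

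The thioredoxins and their reductases were within 1.5-fold. Txn1, the cytosolic thioredoxin, was at 12.05 and 11.75. Txn2, the mitochondrial form, was 1.38-fold higher, at 10.38 and 10.84. The 2 forms differed in sign, but neither reached the limit. The selenoenzymes that reduce them were nearly equal, with Txnrd1 of the cytosol at 9.74 and 9.71 and Txnrd3, which also has a glutaredoxin domain, at 9.90 and 9.89. The mitochondrial Txnrd2 was at 7.24 and 7.66, under the floor. Txnip, which binds thioredoxin and restrains glucose uptake, had the highest value of all members, at 15.42 and 15.24, rank 38 in the control library and rank 44 with DF. An exon of Txnip overlaps the listed gene Gm15441 on the other strand.

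Among proteins with thioredoxin-like domains, Txndc17 and Txndc15 were lower with DF. Txndc17, a cytosolic disulfide reductase, was at 9.13 without DF and 8.47 with it, 1.57-fold lower. Txndc15, a membrane protein needed for cilia, was at 10.59 and 9.97, 1.53-fold lower. Txndc5, a protein disulfide isomerase of the endoplasmic reticulum, was at 12.04 and 12.05. The remaining 5 examined members of the group had differences between -0.26 and 0.28 log2 units. They are Txndc9, Txndc11, Txndc12, Txnl1 and the spliceosome protein Txnl4a. Txnl4b and Txndc16 were under the floor, and Txndc2 and Txndc8 were listed at 0 in both libraries.

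The superoxide dismutases, which turn superoxide into hydrogen peroxide, did not reach 1.5-fold and differed in sign. Sod1, the copper-zinc enzyme of the cytosol, was at 14.60 and 14.09, 1.42-fold lower, from rank 84 to rank 126. Sod2, the manganese enzyme of the mitochondrial matrix, was at 12.43 and 12.79, 1.28-fold higher. Sod3, the secreted form, was at 9.25 and 9.04. Sod1 gave 80.2% of the summed linear values of the 3 genes in the control and 69.6% with DF, and Sod2 17.9% and 28.3%. The transcript end of Sod1 resembles a pseudogene, and that of Sod2 holds a stretch found in other transcripts. Some reads of both could thus have been placed elsewhere.

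Grouped by place in the cell instead of by family, no compartment had most of its examined members past the limit. Of 7 genes for mitochondrial antioxidant proteins (Sod2, Prdx3, Prdx5, Txn2, Txnrd2, Glrx2 and Glrx5) 6 were examined. At 1.5-fold 0 of these were called, beside 21.1% of all genes, 3 having differences above 0 and 3 below, between -0.27 and 0.47. This list leaves out Gstk1, Gpx1 and Mgst1, whose proteins are found in mitochondria and in other places. Of those left out, Gstk1 was called higher, so the count depends on the choice of list. Of 8 genes for thiol proteins of the endoplasmic reticulum and secretory pathway, 5 were examined, with Gpx8 higher, Txndc15 lower and 3 within the limit. Of 7 genes for selenocysteine enzymes, 4 were examined, of which Gpx4 was higher and Gpx1, Txnrd1 and Txnrd3 were within 0.11 log2 units of 0.

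Genes that work with these systems were counted over 8 lists, which hold 104 genes that are not among the 72. Of 72 examined, 8 were higher by 1.5-fold and 5 were lower (18.1%), beside the 21.1% of all genes. With the level floor required in both libraries 4 were higher and 4 lower of 66, and with no floor 16 were higher and 6 lower of 90. Their differences were above 0 in 48 and below 0 in 24, beside 3455 above and 3295 below among all 6761 genes examined. The median difference of the 72 was 0.15, beside 0.01 over all genes examined. Of 23 other Nrf2 targets, 20 were examined, of which 2 were called higher, 2 were called lower and 16 lay within the limit. Ephx1, microsomal epoxide hydrolase, was at 7.42 and 9.07, 3.14-fold higher, and reached the floor only with DF. Hmox1, heme oxygenase, was at 11.65 and 12.37, 1.64-fold higher. Cbr1, carbonyl reductase, was at 9.70 and 8.65, 2.06-fold lower. The most abundant of this list were near equal or within the limit, the ferritin heavy chain gene Fth1 at 16.26 and 16.20 and the transketolase gene Tkt at 13.71 and 14.01. With the floor required in both libraries, 1 of 18 was higher and 2 were lower.

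Selenoproteins need dedicated factors to read UGA as selenocysteine. In the list that holds such factors together with other selenoproteins, 3 genes were called. Secisbp2, which binds the selenocysteine insertion element, was at 8.21 and 9.36, 2.23-fold higher. Sephs1, a homologue of selenophosphate synthetase, was at 7.23 and 8.27, 2.05-fold higher and at the floor only with DF. Vimp, also named Selenos, a selenoprotein of the endoplasmic reticulum, was at 10.76 and 11.40, 1.56-fold higher. Of 13 examined genes of selenium handling, these 3 were higher and 0 lower by 1.5-fold, a share called of 23.1%, close to the 21.1% of all genes. Of the 13 differences 10 were above 0, beside 3455 of 6761 over all genes. Eefsec, the elongation factor that delivers selenocysteine, went the other way, at 5.78 and 3.52, under the floor in both. Sepp1, the secreted selenium carrier selenoprotein P, was at 12.30 and 12.15.

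Suppliers of NADPH and cysteine were mostly level. Idh2, the mitochondrial isocitrate dehydrogenase that makes NADPH, was at 12.08 and 10.96, 2.18-fold lower, while its cytosolic counterpart Idh1 was at 13.48 and 13.44. Mthfd1, of cytosolic folate metabolism, was 1.64-fold higher (7.61 to 8.32) but reached the floor only with DF, and its mitochondrial relative Mthfd2 was at 12.12 and 12.34. These were the 2 called genes of 9 examined for NADPH supply (22.2%, beside 21.1% of all genes), and with the floor required in both libraries Idh2 alone was called, of 8. Of 8 examined genes of cysteine supply and glutathione breakdown, Cndp2, a cytosolic dipeptidase, was the single one called, at 8.0 and 8.89, 1.85-fold higher, and with the floor in both libraries 0 of 7 were higher. Slc3a2, the heavy chain of the cystine transporter, was at 12.88 and 12.43, and the glutamine carrier Slc1a5 at 11.93 and 11.84.

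The remaining lists held few calls. Methionine sulfoxide reductases repair oxidised methionine, and 2 of 3 examined were called, beside 21.1% of all genes. Msra was at 9.44 and 10.25, 1.76-fold higher, Msrb3 at 9.42 and 8.65, 1.70-fold lower, and the selenoprotein Msrb1 at 9.32 and 9.83. Among Keap1 partners and the Maf and Bach factors that pair or compete with Nrf2, Bach1, a repressor of Nrf2 targets, was the single one called of 8 examined, at 8.37 and 7.66, 1.64-fold lower, and with the floor in both libraries 0 of 7 were lower. In the same list the autophagy adaptor Sqstm1 was at 12.66 and 12.91 and the small Maf gene Maff at 11.06 and 11.14. None of 5 examined sources and removers of peroxide was called, with the endoplasmic oxidase Ero1l at 14.13 and 14.58. Catalase (Cat), named after its values were seen, was at 11.77 and 12.28, 1.42-fold higher. None of 13 examined protein disulfide isomerases was called either, with Qsox1 at 14.83 and 15.18 and P4hb at 12.98 and 12.55.

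**Figure D4:**
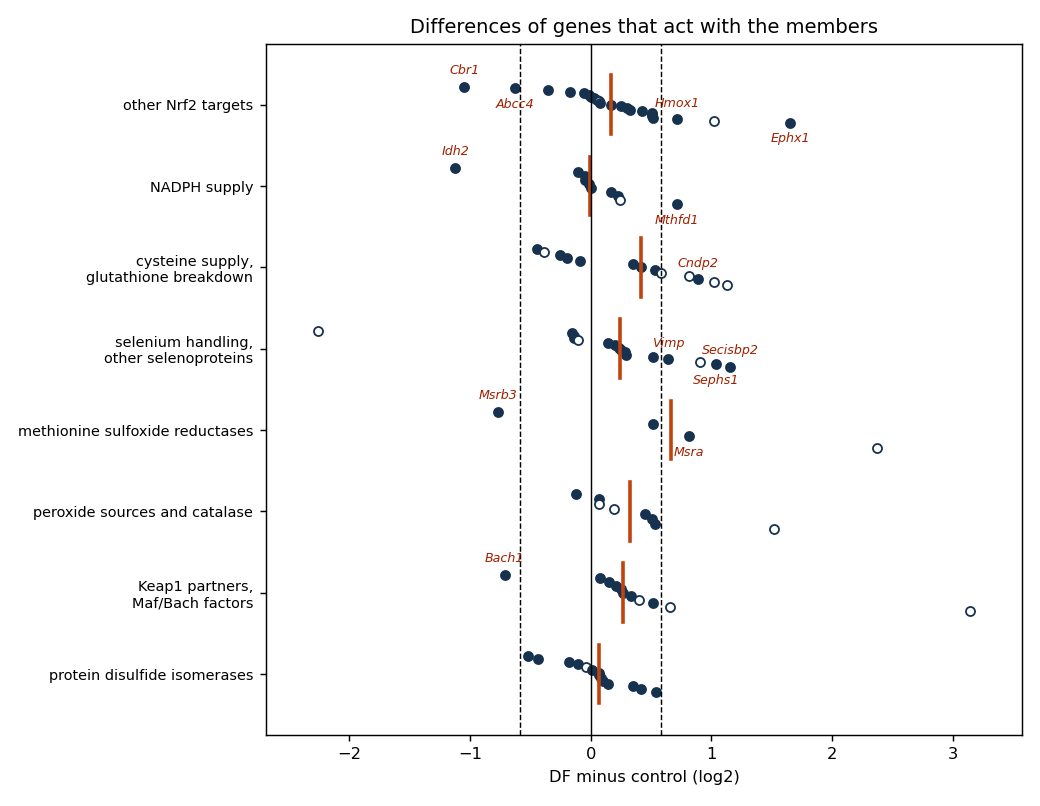
DF minus control differences (log2) of genes that act with the antioxidant families, for those above 0 in both libraries; filled points are examined genes, open points genes under the level floor, orange bars list medians over the points shown, and dashed lines 1.5-fold. Some genes stand in more than one list. Called genes are named, from Idh2 at -1.12 to Ephx1 at 1.65, and no filled point of the peroxide and disulfide isomerase rows passes the dashed lines.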

How the data were processed

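Messenger RNA 3' ends were sequenced from 500 ng of total RNA as single 75 nt reads in 1 control and 1 DF library, per the labels' protocols. Bowtie2, edgeR and the mm10 build are named in the submitters' processing notes. The sources used here give no versions, read counter, annotation, strand handling or normalization. The authors deposited log2 values per gene symbol. Linear values checked in both files all (100%) lay on steps of 1/8, and the sources used here do not say which libraries entered the normalization. Both files share their 140 highest values, as quantile normalization would give. Such a step removes differences in total output, and depth could not be recovered. Differences were computed with pandas 2.3.3 in Python 3.11.15, with no pseudocount and no test. Called means at least 1.5-fold, among genes at or above the level floor in at least 1 library. The members, gene lists and compartment groups were chosen with earlier results of these data known. Every member may be named; of each other list the 2 most abundant genes and up to 3 of the largest called differences are named, except 1 gene that is not reported here. Positions and exon overlaps are from GENCODE vM21, which matched 95.7% of symbols. The last 500 nt of each member's longest coding transcript were compared with all transcripts using blastn 2.17.0 (at least 95% identity over 75 nt). The counting rule was tested on simulated data. Alternatives changed the floor, pseudocount, centring, scaling and the members kept.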

Additional observations from a re-analysis of the deposited data

How the results depend on the processing

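The counts of called members were the same or within 1.5 times the reported ones under most alternatives. With the level floor required in both libraries, 2 members were higher at 1.5-fold and 1 at 2-fold, and 4 genes of the other lists were higher. With no level floor, 2 members were lower at 2-fold and 16 genes of the other lists were higher, those added being under the floor. Leaving out the members that overlap another gene or have similar transcript ends kept 30 examined members, of which 3 were higher and 4 lower at 1.5-fold. The members' median difference lay between -0.02 (members at the floor) and 0.08 (without overlapping or copied members). Of 47 examined members, the differences of 46 moved by less than 0.1 log2 units with the pseudocount and those of all 47 did with each of the 3 changes of centring or scale. Centring on the median and rescaling are weak checks here, because the deposited values were already close in centre and sum. No left-out-library value and no paired analysis was possible because each group holds 1 library. Depth is unknown, so no detection limit can be given for genes listed at 0.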

Other observations

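Some genes under the level floor in both libraries had large differences. Nfe2, a blood-cell relative of Nrf2, had values of 3.19 without DF and 6.33 with it. Msrb2, a mitochondrial methionine sulfoxide reductase, was at 1.81 and 4.18. Slc7a11, the light chain of the cystine transporter and a well-known Nrf2 target, was at 6.59 and 7.61. Nox4, an oxidase that makes hydrogen peroxide, was at 4.33 in the control and listed at 0 with DF. These genes were picked after their values were seen.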
